A study of Mus musculus with 14 samples.

Results

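The antioxidant and redox defence genes are a list of 45 genes that was chosen by function and written down by symbol, with no threshold on a measured value, and matched to the Ensembl and Entrez identifiers of the tables. Of the 14837 genes in the input table, 44 were on this list, and all 44 passed the filter on low counts; Mgst1, a microsomal glutathione transferase, was not in any of the tables used here. By role, 4 of the 45 genes handle superoxide and hydrogen peroxide directly, 21 belong to the glutathione system, 13 to the thioredoxin and peroxiredoxin system, and 7 to the Nrf2 branch, which holds the regulators and several of their textbook targets.

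Superoxide dismutases turn superoxide into hydrogen peroxide, which catalase, glutathione peroxidases and peroxiredoxins then remove. Glutathione is made by glutamate-cysteine ligase and glutathione synthetase, and glutathione reductase returns it to its reduced form, whereas peroxiredoxins are recharged by thioredoxin and thioredoxin reductase. Nrf2, the product of Nfe2l2, is held by Keap1 in unstressed cells and otherwise binds antioxidant response elements in the promoters of genes such as Nqo1, Hmox1, Gclc, Gclm and Txnrd1. In muscle stem cells (MuSCs), the cells that rebuild muscle fibres after injury, these systems limit oxidative damage.

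The study compared control MuSCs with Lin28a+ MuSCs from mouse skeletal muscle, both maintained on Matrigel-coated plates in DMEM with serum and without further treatment. Lin28a+ MuSCs were sorted from mice with an inducible Cre at the Lin28a gene (Lin28a-CreERT2) and a Cre-dependent red reporter (LSL-tdTomato), so that the reporter marks cells in which Cre was expressed and active. The labels give the genotype only as Control or Lin28a positive, and give neither age nor number of animals; the age and genotype of the mice that gave the control cells were not stated in the sources used here. Of the 14 libraries, each group gave 2 for input RNA, 2 for m6A-RIP and 2 for Igf2bp3-RIP, and Lin28a+ MuSCs gave 2 more for Lin28a-RIP. In RIP-seq an antibody pulls down RNA, here RNA that carries N6-methyladenosine (m6A) or RNA bound by the m6A reader Igf2bp3 or by Lin28a. Nothing in the labels says whether the 2 libraries of a group came from separate animals or cultures, so the p-values below measure only the spread between libraries, which may be technical.

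Counts summed to between 4842838 and 6220928 in the input libraries, 21350962 and 31830638 in m6A-RIP, 9215355 and 34142094 in Igf2bp3-RIP, and 33908110 and 36610494 in Lin28a-RIP. The 8 myogenic markers checked, among them Myod1 and Pax7, were all measured, and their summed level lay between 8780 and 9000 CPM (counts-per-million, scaled between libraries) in the 4 input libraries. Myod1, which was not called, gave 4650 to 4730 CPM of this sum, and 6 of the 8 markers were called in RNA: Vcam1 (log2 change -1.93), Myf5 (-1.21), Ncam1 (-1.06) and Des (-0.53) lower, and Cdh15 (0.77) and Pax7 (0.36) higher in Lin28a+ MuSCs. Endothelial markers summed to at most 0.562 CPM (Cdh5, Kdr and Tek were not in the table), and macrophage markers to at most 2.25 CPM (Adgre1 was not in the table). Fibro-adipogenic markers summed to 4.31 and 4.99 CPM in control and to 13.8 and 12.7 CPM in Lin28a+ libraries, almost wholly Ly6a, while Dcn and Lum were not in the table. The pericyte and smooth muscle list summed to 5440 and 5400 CPM in control and to 7440 and 7430 CPM in Lin28a+ libraries, nearly all of it Acta2, which was called higher (0.46). In the same list Pdgfrb, at most 4.5 CPM, was called higher (1.27) and Rgs5, at most 2.44 CPM, lower (-3.35). The part of these lists in the results that follow was not tested.

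In the input RNA, the redox genes moved in both directions. The 5 that fell furthest were Nqo1, Gsta4, Gclm, Gpx3 and Hmox1, and the 3 that rose furthest were Sod3, Prdx4 and Gstp1. With edgeR's quasi-likelihood test, 34 of 44 genes passed an adjusted p of 0.05, 17 higher and 17 lower in Lin28a+ MuSCs. Over all 11317 genes tested the share called was 56.8%, with 28.1% higher and 28.7% lower. The groups of libraries did not overlap for 39 of 44 redox genes, where 84.8% of all genes had such a gap. The median log2 fold change of the redox genes was 0.01, beside 0.0098 over all genes, so that the middle of the list lay close to that of all genes. In bulk RNA, fewer cells of a type and less RNA per cell cannot be told apart. Of the called genes, 10 were at least 1.5-fold lower and 3 at least 1.5-fold higher, where 17.6% and 12.4% of all genes were called at that size. DESeq2 called 20 of the 44 (9 higher and 11 lower; 26.9% of all genes), among them 11 of these 13 genes, all but Sod3 and Gstm2.

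**Figure D1:**
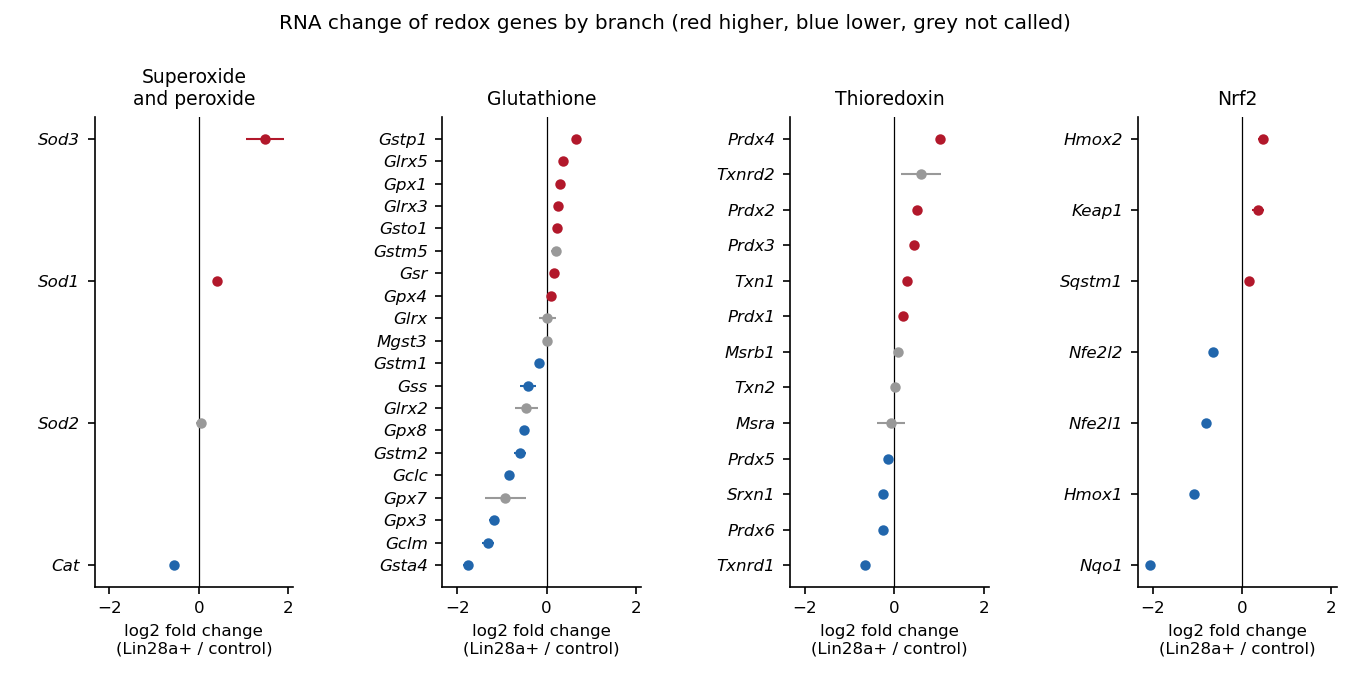
RNA change of the 44 measured redox genes by branch. The x axis is the log2 fold change of input RNA, Lin28a+ over control, points are genes, bars are standard errors, and colours give the edgeR call. Each branch holds genes on both sides of 0; Nqo1 lies lowest at -2.05 and Sod3 highest at 1.48.

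Every one of the 7 genes of the Nrf2 branch was called, 4 lower and 3 higher; this and the counts of the other branches are to be read against the 56.8% of all genes called, 28.1% higher and 28.7% lower. Nqo1 (ENSMUSG00000003849), a quinone reductase and a textbook Nrf2 target, was at 156 and 153 CPM in the control libraries and at 36.6 and 37.8 CPM in the Lin28a+ libraries. It fell by 2.05 on the log2 scale (SE 0.082, adjusted p = 4.49e-06), a 4.14-fold decrease. Hmox1 (ENSMUSG00000005413), the inducible heme oxygenase, was at 519 and 529 CPM in control and at 248 and 249 CPM in Lin28a+ libraries, a log2 change of -1.08 (SE 0.034, adjusted p = 6.03e-06). In both genes the 2 libraries of a group lay close together and far from the other group. The messages of the transcription factors were lower as well. Nfe2l2 went from 193 and 196 CPM to 129 and 121 CPM (log2 change -0.64, SE 0.051, adjusted p = 6.54e-05), and Nfe2l1, a relative that also binds antioxidant response elements, from 91.6 and 95.1 CPM to 53.3 and 53.2 CPM (-0.81, SE 0.076, adjusted p = 4.53e-05). The other 3 genes of the branch moved the other way. Keap1, the adaptor that targets Nrf2 for degradation, rose from 20.6 and 21.2 CPM to 27.7 and 26.2 CPM (0.36, adjusted p = 0.00965). Hmox2, the constitutive heme oxygenase, rose by 0.46 and Sqstm1, an autophagy receptor that binds Keap1, by 0.15 on the log2 scale, from 362 and 379 CPM to 411 and 413 CPM; these 3 increases were not called by DESeq2.

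The glutathione branch had 7 genes higher and 8 lower among 20 measured, with a median log2 fold change of -0.09, beside 0.0098 over all genes. Both subunits of glutamate-cysteine ligase, which catalyses the rate-limiting step of glutathione synthesis, were lower. The catalytic subunit Gclc (ENSMUSG00000032350) was at 167 and 166 CPM in control and at 86.3 and 101 CPM in Lin28a+ libraries (-0.83, SE 0.067, adjusted p = 0.000214). The modifier subunit Gclm (ENSMUSG00000028124) was at 39.9 and 47.6 CPM in control and at 17.1 and 18.4 CPM in Lin28a+ libraries (-1.31, SE 0.13, adjusted p = 0.000288). Gss, which performs the next step, fell by 0.41 on the log2 scale (adjusted p = 0.0412), a call that DESeq2 did not make. Gsr, which reduces oxidised glutathione, was by contrast slightly higher, from 64.3 and 66.5 CPM to 73.5 and 73.6 CPM (0.17, adjusted p = 0.0433), and was not called by DESeq2 either.

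Among the enzymes that use glutathione, transferases and peroxidases split. Gsta4 (ENSMUSG00000032348), a transferase that detoxifies lipid aldehydes such as 4-hydroxynonenal, was at 89.4 and 92.5 CPM in control and at 26.3 and 27.4 CPM in Lin28a+ libraries, a 3.39-fold decrease (log2 change -1.76, SE 0.099, adjusted p = 8.9e-06). Gstm2, a mu-class transferase, went from 24.7 and 24.8 CPM to 15.1 and 17.8 CPM (-0.59, adjusted p = 0.00182). Gstp1, the pi-class transferase, went the other way, from 51.9 and 50.5 CPM to 81.2 and 79.5 CPM (0.65, adjusted p = 8.07e-05). Among peroxidases, the secreted Gpx3 fell from 58.6 and 59.4 CPM to 27.1 and 24.7 CPM (-1.18, SE 0.11, adjusted p = 3.83e-05) and the endoplasmic reticulum Gpx8 by 0.51, whereas the cytosolic Gpx1 rose by 0.29 and Gpx4, which reduces lipid hydroperoxides, by 0.1 on the log2 scale. The increase of Gpx4 was small, at 243 CPM in both control libraries and 259 and 261 CPM in the Lin28a+ libraries, and its call was lost when any 1 input library was left out. Gstm1 went from 86.5 and 85.9 CPM to 76.3 and 75.4 CPM (-0.18) and Glrx3 from 172 and 175 CPM to 206 and 207 CPM (0.25), while Gsto1 was 0.23 and Glrx5 0.37 higher. Of these 4 calls DESeq2 made that of Glrx5 alone. Gpx7, Gstm5, Mgst3, Glrx and Glrx2 did not pass the test. Gpx7 RNA rested on 16 and 17 counts in control and 11 and 4 in Lin28a+ libraries (log2 change -0.92), and it was called lower without Lin28a+ library a (-1.78, adjusted p = 0.0218 by edgeR) and not without library b (-0.4). Glrx2 was at 7.49 and 7.56 CPM in control and at 5.5 and 5.52 CPM in Lin28a+ libraries. Gstm genes, Gstp1 and several other members have near-identical relatives or pseudogenes, and how reads shared between copies were counted is not given in the sources used here, so their single values are less certain.

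**Figure D2:**
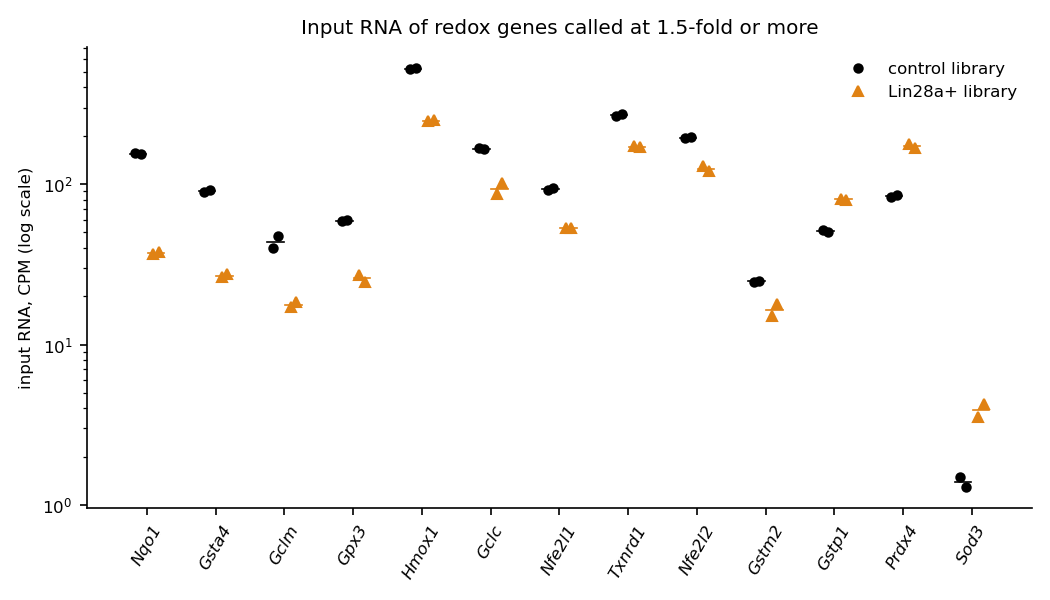
Input RNA of the 13 redox genes called at 1.5-fold or more, ordered by log2 fold change. The y axis is CPM on a log scale, circles are the 2 control libraries, triangles the 2 Lin28a+ libraries, and short lines the group means. In each gene the groups are apart, from Nqo1 at 156 and 153 against 36.6 and 37.8 CPM to Sod3 at 1.5 and 1.29 against 3.54 and 4.29 CPM.

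In the thioredoxin branch, the reductase fell while most peroxiredoxins rose. Txnrd1 (ENSMUSG00000020250), the cytosolic thioredoxin reductase, was at 267 and 273 CPM in control and at 172 and 171 CPM in Lin28a+ libraries (-0.66, SE 0.043, adjusted p = 2.74e-05). Its substrate Txn1, the most abundant message of the list by CPM, was at 1530 and 1500 CPM in control and at 1860 and 1850 CPM in Lin28a+ libraries (0.29, SE 0.023, adjusted p = 0.000187). Prdx4 (ENSMUSG00000025289), the peroxiredoxin of the endoplasmic reticulum, rose 2.05-fold, from 83 and 85.1 CPM to 177 and 167 CPM (log2 change 1.03, SE 0.058, adjusted p = 2.74e-05). Prdx2 rose by 0.51, the mitochondrial Prdx3 by 0.44 and Prdx1 by 0.19 on the log2 scale, and these 4 typical 2-cysteine peroxiredoxins were also called by DESeq2. Prdx5 and Prdx6, which work by other catalytic cycles, were 0.14 and 0.25 lower, and Srxn1, which repairs overoxidised peroxiredoxins, was 0.25 lower; none of these 3 decreases was called by DESeq2. Txn2, Txnrd2, Msra and Msrb1 did not pass the test, and Txnrd2 rested on between 8 and 13 counts a library.

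The enzymes of superoxide and peroxide were few. Sod1, the cytosolic dismutase, rose from 498 and 489 CPM to 665 and 645 CPM (0.41, SE 0.027, adjusted p = 0.000105). Cat, catalase, fell from 95.5 and 109 CPM to 66.8 and 73 CPM (-0.56, SE 0.082, adjusted p = 0.00207), and the mitochondrial Sod2 did not pass the test, at 44.2 and 44.7 CPM in control and at 43.6 and 47.8 CPM in Lin28a+ libraries. Sod3, the extracellular dismutase, was at 1.5 and 1.29 CPM in control and at 3.54 and 4.29 CPM in Lin28a+ libraries (1.48, SE 0.43, adjusted p = 0.00214). That change rested on 8 and 8 against 18 and 21 counts, and DESeq2 did not call it.

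Genes around these systems were taken from a second list of 79 redox genes in 7 groups, of which 77 were in the input table and 62 passed the filter. Because Nnt stood under a pair of identifiers, the tests numbered 63, of which 20 were called higher and 23 lower (68.3% in all), beside 56.8% of all genes with 28.1% higher and 28.7% lower; the counts of the single groups are to be read against the same shares. Of 10 partners of Nrf2, 7 were lower and 2 higher. Maff, a small Maf protein that pairs with Nrf2, fell by 2.07 on the log2 scale (adjusted p = 9.87e-05), Sesn3, a sestrin, by 1.5 (2.99e-05), and Bach1, a repressor at antioxidant response elements, by 1.02 (5.36e-05). All 3 tested oxidant-producing enzymes were lower, among them xanthine dehydrogenase (Xdh, -2.98, adjusted p = 6.2e-05) and aldehyde oxidase (Aox1, -1.34, adjusted p = 0.000373). Of 14 selenoprotein genes and genes for selenocysteine insertion, 5 were higher and 3 lower, with Selenoh (1.24, adjusted p = 2.28e-05) and the elongation factor Eefsec (1.06, adjusted p = 0.000307) past 2-fold upwards and Selenop (-1.05, adjusted p = 0.0014) past 2-fold downwards. The other groups were mixed, with 3 higher and 4 lower of 9 in cystine and glutathione turnover, 4 higher and 3 lower of 9 tests in NADPH supply, 2 higher and 2 lower of 7 in iron and heme handling, and 4 higher and 1 lower of 11 other thiol enzymes. In these groups Ggt7, a gamma-glutamyltransferase relative, was past 2-fold (1.68, adjusted p = 0.00124), and the iron exporter Slc40a1 had a log2 change of -1.09 without passing the test (adjusted p = 0.0546).

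Promoter windows of 250 bases before to 50 bases after the annotated start were at hand for 38 of the 45 genes, from RefSeq on GRCm38.p6. They were searched on both strands for TGACNNNGC, the core letters of the antioxidant response element, which on the other strand read GCNNNGTCA. The letters stood in the window of 8 of 38 redox genes (21.1%), where 14.0% of 27025 genes with a window held them. Counted per window, since a gene can have several, they were in 8 of 55 (14.5%), beside 12.4% of all 32851 windows. By gene, the letters were in 4 of 13 lower in Lin28a+ MuSCs, 2 of 15 higher and 1 of 9 not called, and the eighth gene was Mgst1. No window was at hand for Gclc, Hmox1, Gsta4 and Prdx6, which were lower. The same held for Sod3 and Gsr, which were higher, and for Msra, which was not called. To show where the letters lie, the following lines give, 5′ to 3′ on the strand of the gene and with matching letters in capitals, 3 windows of genes that fell and hold a match (Gclm, chr3:122245307-122245606, plus strand; the second of 3 windows of Txnrd1, chr10:82858956-82859255, plus strand; Nfe2l2, chr2:75704614-75704913, minus strand), the window of Nqo1 (chr8:107403156-107403455, minus strand), which fell most and holds no match here, and that of Prdx1 (chr4:116685349-116685648, plus strand), which rose and holds one.
Gclm: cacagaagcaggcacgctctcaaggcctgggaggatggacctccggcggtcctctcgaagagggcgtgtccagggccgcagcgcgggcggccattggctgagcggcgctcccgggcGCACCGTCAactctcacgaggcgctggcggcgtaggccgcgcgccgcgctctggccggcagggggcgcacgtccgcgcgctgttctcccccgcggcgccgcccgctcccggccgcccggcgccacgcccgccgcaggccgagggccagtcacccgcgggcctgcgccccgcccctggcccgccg
Txnrd1: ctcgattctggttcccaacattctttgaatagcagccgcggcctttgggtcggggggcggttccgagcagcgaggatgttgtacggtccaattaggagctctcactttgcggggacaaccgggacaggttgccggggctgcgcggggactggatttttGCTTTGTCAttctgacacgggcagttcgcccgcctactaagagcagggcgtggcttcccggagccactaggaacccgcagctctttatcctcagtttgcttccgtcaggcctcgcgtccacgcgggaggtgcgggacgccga
Nfe2l2: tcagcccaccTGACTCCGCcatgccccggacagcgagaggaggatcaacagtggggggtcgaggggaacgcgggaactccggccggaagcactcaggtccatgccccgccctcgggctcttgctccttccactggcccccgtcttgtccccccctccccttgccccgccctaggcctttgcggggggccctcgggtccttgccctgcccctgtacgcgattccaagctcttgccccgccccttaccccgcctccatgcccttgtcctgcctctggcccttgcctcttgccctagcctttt
Nqo1: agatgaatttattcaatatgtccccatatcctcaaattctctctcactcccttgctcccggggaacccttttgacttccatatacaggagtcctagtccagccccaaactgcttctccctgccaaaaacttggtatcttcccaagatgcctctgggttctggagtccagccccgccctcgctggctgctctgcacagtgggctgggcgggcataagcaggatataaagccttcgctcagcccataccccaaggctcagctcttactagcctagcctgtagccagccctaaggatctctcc
Prdx1: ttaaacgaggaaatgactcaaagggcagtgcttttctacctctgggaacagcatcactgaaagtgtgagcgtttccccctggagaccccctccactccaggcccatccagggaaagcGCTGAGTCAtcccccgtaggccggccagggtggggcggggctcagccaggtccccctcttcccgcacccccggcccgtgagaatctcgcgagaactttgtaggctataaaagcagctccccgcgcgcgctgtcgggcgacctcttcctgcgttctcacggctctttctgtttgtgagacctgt
The match began 134 bases before the start in Gclm, 92 before it in Txnrd1, 240 before it in Nfe2l2 and 133 before it in Prdx1. Such a match is a string of letters and not a measured binding site, and elements further from the start are outside these windows.

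In m6A-RIP, most redox genes called in both assays changed in the direction of their RNA. Of the 44 genes, 28 had at least 1 row in the m6A-RIP table (63.6%, Wilson interval 48.9 to 76.2%), beside 65.6% of all genes tested in RNA. Of all 45 genes, the 17 without a row were Sod2, Sod3, Cat, Gpx4, Gpx7, Gsr, Gss, Gstm2, Mgst1, Mgst3, Prdx1, Prdx2, Prdx3, Prdx4, Txnrd2, Msra and Nqo1, so that neither Nqo1 nor any of the 4 peroxiredoxins that rose in RNA could be followed there. Summed per gene, 18 of 28 were called (64.3%), 5 higher and 13 lower, beside 66.2% of all genes with 32.5% higher and 33.7% lower. The median log2 fold change was -0.13, beside 0.0069 over all genes.

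Of these genes, 12 were lower and 4 were higher in both RNA and m6A-RIP, and 1, Prdx5, had opposite calls. Whatever the call, the sign was the same in both assays for 22 of 28 genes (78.6%), beside 85.5% of 7415 genes, so that the share among redox genes was not above that of genes in general. Hmox1 went from 266 and 271 CPM in m6A-RIP of control to 128 and 129 CPM in that of Lin28a+ MuSCs (-1.06, SE 0.04, adjusted p = 3.52e-10). Nfe2l1, the most abundant of the list in this assay, went from 1080 CPM in both control libraries to 632 and 611 CPM (-0.79, SE 0.037, adjusted p = 2.15e-09), and Txnrd1 from 381 and 379 CPM to 224 and 230 CPM (-0.74, SE 0.039, adjusted p = 7.35e-09). These 3 falls were close in size to those of the RNA. Gsta4 fell furthest, from 14.5 and 10.8 CPM to 3.57 and 3.1 CPM (-1.93, SE 0.2). The 5 higher genes were Gstp1 (0.57), Prdx5 (0.43), Keap1 (0.42), Glrx5 (0.37) and Gpx1 (0.18). Across the 28 genes the log2 changes in m6A-RIP and RNA had a Pearson r of 0.858, beside 0.833 across 7415 genes; genes are not independent replicates, and each assay's change rests on the same 4 libraries.

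**Figure D3:**
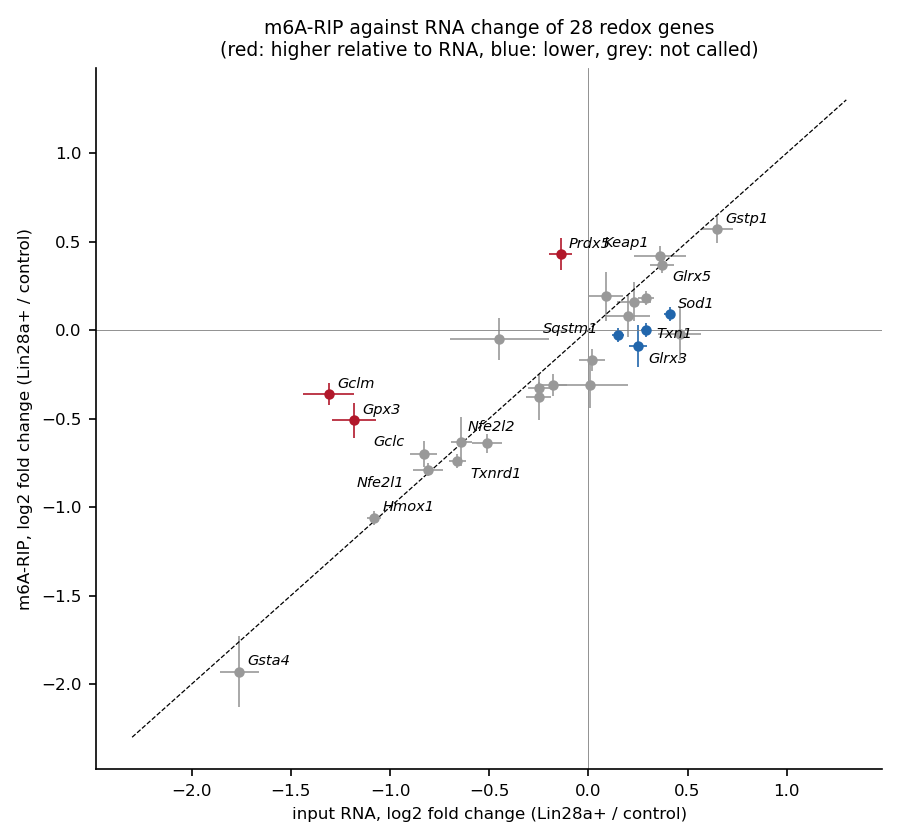
Log2 fold change (Lin28a+ over control) in m6A-RIP against that in input RNA for the 28 redox genes in both, with standard errors. Colours give the call of the difference between the changes, and the dashed line marks equal change. Most genes lie along the line, while Gclm, Gpx3 and Prdx5 lie above it and Sod1, Txn1, Glrx3 and Sqstm1 below it.

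Whether m6A-RIP changed by more or less than RNA was tested as an interaction in 1 model over both assays. Of 28 genes, 7 were called (25%), 3 higher and 4 lower, beside 7.16% of 7950 genes with 3.06% higher and 4.1% lower. DESeq2 called 5 of them (4.24% of all genes), and 16 of 28 differed by no more than 0.15 on the log2 scale. Hmox1, Nfe2l1 and Nfe2l2 had differences of 0.00 (SE 0.042, 0.077 and 0.1). Relative to RNA, m6A-RIP was higher in Lin28a+ MuSCs for Gclm (0.93, SE 0.13, adjusted p = 0.000814), Gpx3 (0.66, SE 0.14, adjusted p = 0.0157) and Prdx5 (0.56, SE 0.082, adjusted p = 0.000459). Summed per gene, both assays fell in Gclm and Gpx3, m6A-RIP by less than RNA. Gclm was at 60.1 and 61.8 against 46.7 and 48.2 CPM in m6A-RIP, although its rows moved in both directions, as given below. Gpx3 was at 26.7 and 32 against 21 and 20.2 CPM in m6A-RIP. Prdx5 was at 20.4 and 20.3 CPM in m6A-RIP of control and at 27.4 and 27.3 CPM in that of Lin28a+ MuSCs, whereas its RNA went from 123 and 120 to 111 and 109 CPM. Here the m6A-RIP libraries were higher in both Lin28a+ samples while the RNA was lower in both.

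Relative to RNA, m6A-RIP was lower for Glrx3 (-0.35, SE 0.085, adjusted p = 0.0107), Sod1 (-0.33, SE 0.045, adjusted p = 0.000947), Txn1 (-0.3, SE 0.042, adjusted p = 0.00125) and Sqstm1 (-0.19, SE 0.047, adjusted p = 0.0311). In m6A-RIP, Sod1 was at 193 and 190 CPM in control and at 202 and 206 CPM in Lin28a+ libraries. Txn1 was at 210 and 217 CPM in control and at 215 and 213 CPM in Lin28a+ libraries, and Glrx3 at 15.4 and 15.8 against 15.4 and 14 CPM. Sqstm1 was at 417 and 436 against 417 and 420 CPM. Summed per gene, these 4 were thus called higher in RNA and not called in m6A-RIP, although 1 row each of Sod1 (0.2) and Txn1 (0.17) was called higher. The calls of Gpx3, Glrx3 and Sqstm1 were lost when single libraries were left out, which left 4 of 28 called without control replicate 1 and without either Lin28a+ input library; those of Gclm, Prdx5, Sod1 and Txn1 held in every such fit and by DESeq2.

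Row by row, 36 of 56 rows were called, 13 higher and 23 lower, beside 61.8% of all rows with 30.0% higher and 31.8% lower. With libraries scaled by total counts in place of TMM factors, 9 were higher and 30 lower. That scaling also lowered the median over all genes in m6A-RIP, and the share of all rows called under it is not given here. The 9 and 30 are thus not to be read as particular to redox genes. Of 16 genes with 2 or more rows, 1 had rows called in both directions. This was Gclm: its row under transcript ENSMUST00000176761.2 fell from 31.5 and 32.1 CPM to 13.2 and 14.1 CPM (-1.21, SE 0.098, adjusted p = 1.05e-07), close to the change of the RNA, while its row under ENSMUST00000149983.3 rose from 22.4 and 23.2 CPM to 30.4 and 31.4 CPM (0.44, SE 0.085, adjusted p = 0.000454). The third, under ENSMUST00000178826.7, was at 5.22 and 5.27 against 3.99 and 3.46 CPM and was not called. Of the 3 rows, 1 thus went against the RNA. In contrast, the 5 rows of Txnrd1 all fell, by between 0.66 and 0.72 on the log2 scale, and the 4 rows of Keap1 all rose, by between 0.4 and 0.68. Of the 5 rows of Nfe2l1, 3 fell, the most abundant of them from 653 and 651 CPM to 401 and 388 CPM, and both rows of Hmox1 fell.

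**Figure D4:**
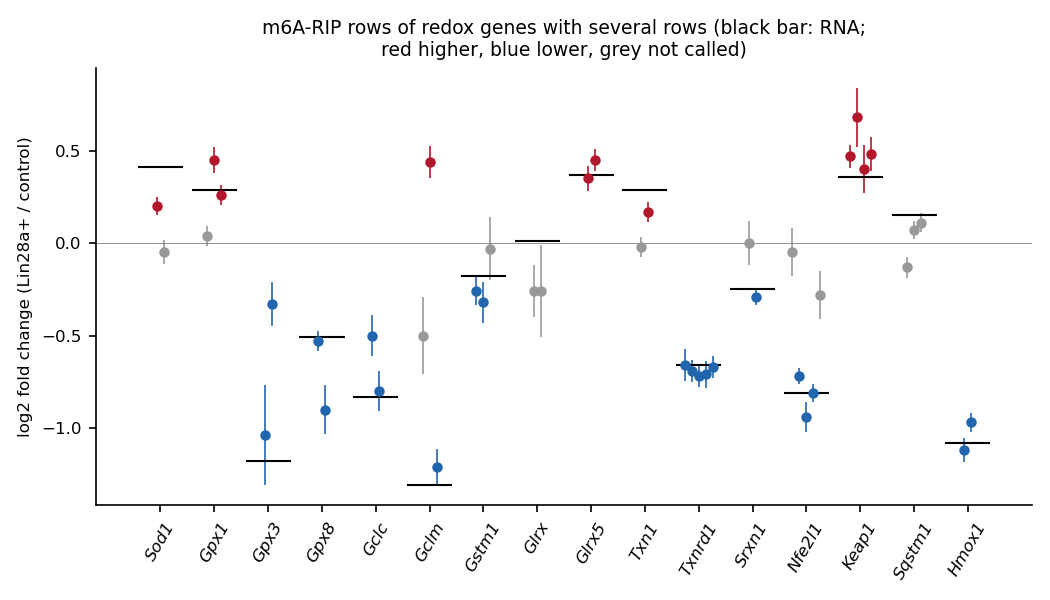
Log2 fold change (Lin28a+ over control) of each m6A-RIP row of the 16 redox genes with 2 or more rows, with standard errors. Points are rows coloured by call, and black bars are the change of the gene's input RNA. The rows of Txnrd1 and Keap1 lie together, whereas those of Gclm reach from -1.21 to 0.44.

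Binding by Lin28a and Igf2bp3 was examined as the presence of at least 1 peak annotated to the gene. In Lin28a-RIP this held for 6 of 44 genes (13.6%, Wilson interval 6.4 to 26.7%), Sod1, Gsr, Gclc, Gclm, Glrx2 and Txnrd1, beside 25.4% of 11305 genes tested in RNA. In Igf2bp3-RIP it held for 9 of 44 (20.5%, 11.2 to 34.5%), those 6 with Gpx3, Gstm1 and Nfe2l1, beside 32.9%. None of the 7 genes of the Nrf2 branch had a Lin28a-RIP peak. The tables list only called peaks, so a gene without one is not shown to be unbound, and neither assay had a mock pull-down among the libraries used here.

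The position of the peaks narrowed these lists. The peaks annotated to Sod1, Glrx2 and Nfe2l1 all lay outside the RefSeq spans of these genes on GRCm38.p6 and inside a neighbour. The Sod1 peaks began 3146 bases (Igf2bp3-RIP) and 3012 bases (Lin28a-RIP) beyond the gene, within Scaf4; the peaks of Glrx2 lay within Ro60, and those of Nfe2l1 within Cbx1. Counting only peaks in the gene's own span, 4 genes had a Lin28a-RIP peak (Gsr, Gclc, Gclm and Txnrd1; 22.1% of all genes) and 6 an Igf2bp3-RIP peak (those 4 with Gpx3 and Gstm1; 28.4% of all genes). The m6A-RIP table gives no positions, but both of its Sod1 rows, its Glrx2 row and 3 of 5 Nfe2l1 rows stand under the transcripts to which these outlying peaks were annotated, and in which gene those rows lie was not tested. In RNA, Scaf4 and Cbx1 had log2 changes of -0.02 and 0.08, neither called, and Ro60 was not tested under that symbol.

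Txnrd1 stood out by its counts, which were not set against RNA level or gene length. It had 9 Lin28a-RIP peaks with 42319 and 38521 counts in the 2 libraries, more than 94.9% of genes with a peak, and a median gene with a peak had 3. The widest, chr10:82895804-82897609 (mm10 numbering, which is that of GRCm38), near the end of the gene, held 14579 and 12917 of these counts. All 5 of its Igf2bp3-RIP peaks overlapped a Lin28a-RIP peak; at chr10:82879023-82879291 the limits were the same in both assays. Gclc had 5 Lin28a-RIP peaks with 3533 and 3419 counts, each overlapping 1 of its 10 Igf2bp3-RIP peaks. Its most abundant Igf2bp3-RIP peak, chr9:77793376-77794332, lay at the end of the gene and held 2 of the Lin28a-RIP peaks. Gsr and Gclm had 1 Lin28a-RIP peak each, with 760 and 706 and with 318 and 254 counts. Of the 22 Lin28a-RIP peaks annotated to redox genes, 18 shared at least 1 base with a peak of Igf2bp3-RIP (81.8%), beside 52.4% of all 21616 peaks. With a reciprocal overlap of at least 50% the count was 11 (50%), beside 43.0% of all peaks, and of the 16 inside their own gene 12 overlapped (75%), beside 51.7% of all such peaks. From the other side, 14 of 25 Igf2bp3-RIP peaks of redox genes overlapped a Lin28a-RIP peak (56.0%), beside 60.4% of all 19465. Peaks of 1 gene are not independent of each other.

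**Figure D5:**
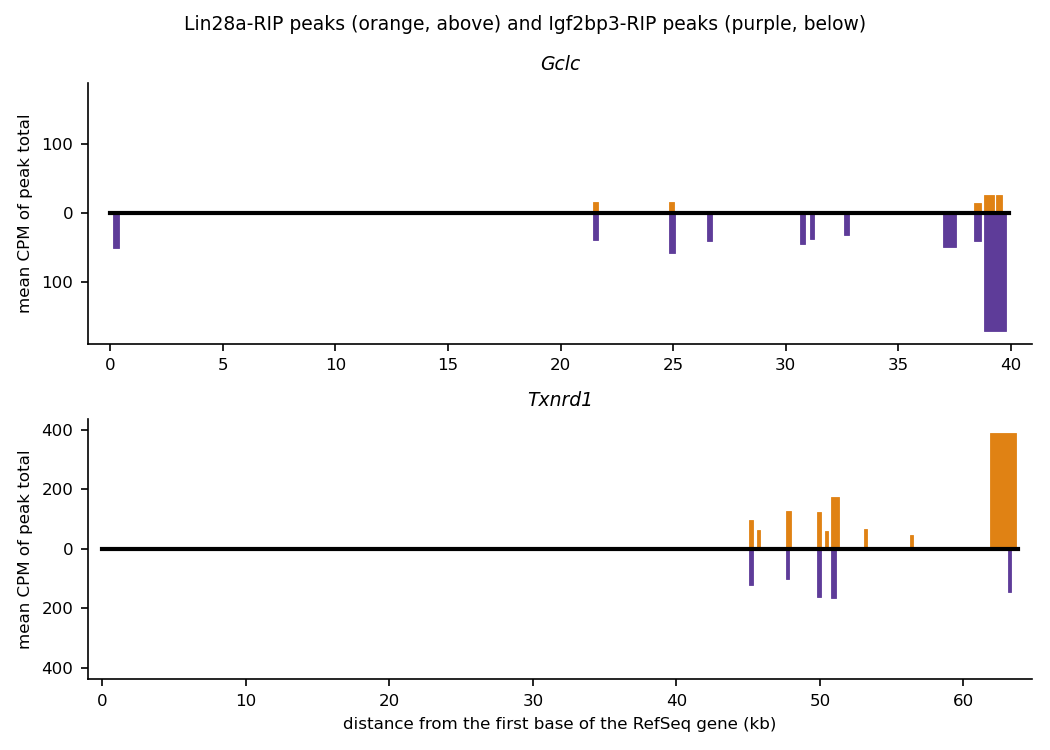
Peaks along Gclc and Txnrd1, with Lin28a-RIP peaks drawn upwards in orange and Igf2bp3-RIP peaks downwards in purple. The x axis is the distance in kb from the first base of the RefSeq gene (black line), and bar height is the mean CPM of the peak, as a share of all counts in peaks, over 2 (Lin28a-RIP) or 4 (Igf2bp3-RIP) libraries. In Gclc each of the 5 Lin28a-RIP peaks shares at least 1 base with an Igf2bp3-RIP peak, and in Txnrd1 5 of 9 do.

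Igf2bp3-RIP counts of the redox genes did not pass the test between groups. Of the 25 peaks, 0 were called by edgeR (0.123% of all peaks), and of the 9 genes, 0 were called (0.287% of all genes), with 0 of each at an unadjusted p under 0.05 (5.22% of all peaks and 8.44% of all genes) and 0 of each by DESeq2 (1.35% and 2.54%). The common variation between libraries was 25.4% per gene in this assay, beside 2.48% in RNA, so that changes of the size seen in RNA can be missed here. Gclc was at 457 and 575 CPM in control and at 580 and 614 CPM in Lin28a+ libraries. Txnrd1 was at 718 and 808 against 545 and 728 CPM, and Gclm at 38.2 and 73.4 against 42.6 and 76.3 CPM. In Gclm the 2 libraries numbered 2 were the high ones in both groups, and in Txnrd1 the groups overlap. Gpx3 was at 72.4 and 57.6 against 56.5 and 19 CPM, where a single Lin28a+ library was low. Glrx2 was at 299 and 379 against 354 and 525 CPM, Gstm1 at 40.7 and 47.3 against 62.7 and 43.7 CPM, and Nfe2l1 at 74.6 and 68.9 against 71.7 and 70.2 CPM, with overlapping groups in each. Sod1 was at 50.1 and 43.2 against 51.3 and 51 CPM, and Gsr at 44.5 and 46.6 against 43.1 and 43.2 CPM. The groups did not overlap for 4 of the 9 genes (Gclc, Gpx3, Sod1 and Gsr), beside 38.2% of all genes.

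Whether a change in Igf2bp3-RIP was called depended on the fit, and the counts with a replicate block are given in the section on processing. Without that block, edgeR called a change relative to RNA for 0 of 9 genes (1.04% of 3927 genes) and DESeq2 for 0 (1.68%). By edgeR, 4 had an unadjusted p under 0.05, beside 24.2% of all genes. These were Nfe2l1 (0.57, adjusted p = 0.0861) and Gclc (0.81, adjusted p = 0.101), with positive differences, and Gsr (-0.48, adjusted p = 0.109) and Sod1 (-0.5, adjusted p = 0.167), with negative ones; of these, Nfe2l1 and Sod1 are those whose peaks lie in a neighbouring gene.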

How the data were processed

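RNA-seq of input, m6A-RIP-seq, Igf2bp3-RIP-seq and Lin28a-RIP-seq libraries of control and Lin28a+ MuSCs were analysed. Per the submitters' processing notes and the study's methods, the authors used FastQC, HISAT2 2.0.4, MACS2 (given as 1.4.3) and DESeq2 1.42.0. The builds named are GRCh38, which is human, and mm10; identifiers are those of mouse. The authors deposited estimated counts per gene for the input, which need not be whole, and whole-number counts per peak for the RIP libraries, without scaling. The counting program, its handling of strand and shared reads, and whether libraries were pooled for peak calling are not given in the sources used here. Columns were matched by name. The Lin28a+ input columns carry names of m6A-RIP libraries, and the Lin28a+ m6A-RIP columns share 1 name, so these were assigned to their group only.

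Input values were rounded to whole numbers. Tests were edgeR 4.0.16 quasi-likelihood tests in R 4.3.3 (TMM factors, filterByExpr), fitted to all features, with a Benjamini-Hochberg adjusted p under 0.05 as threshold; with 2 libraries a group the error rests on a spread shared among features. CPM were scaled by TMM factors. A standard error was not allowed below counting error. For m6A-RIP, single rows and their sums over a gene were tested, and the latter also relative to RNA as an interaction of cells and assay. RIP tables were joined to the input by symbol. Values in every library are given, in the assays a result turns on, for genes called in RNA at 1.5-fold or more, for the at most 5 each way called in m6A-RIP relative to RNA, and for genes with a Lin28a-RIP or Igf2bp3-RIP peak (at most 8 by counts; all 9 are given); other values were chosen after they were seen. The members and lists were chosen with earlier results of these data known. The tests were checked on simulated data. Intervals are 95% Wilson intervals and cover counting error only. Alternatives were DESeq2, other scalings and filters, a replicate block, single libraries left out, 100-count peaks, 50% reciprocal overlap and, added after the data were seen, peaks in the gene's own span. Lin28a itself was not analysed here.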

Additional observations from a re-analysis of the deposited data

Results flagged for a closer look

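In 7 redox genes the difference between Lin28a+ and control MuSCs was not the same in m6A-RIP as in input RNA, by edgeR's interaction test. The change in m6A-RIP minus the change in RNA, on the log2 scale, was 0.93 for Gclm, 0.66 for Gpx3 and 0.56 for Prdx5, and -0.33 for Sod1, -0.35 for Glrx3, -0.3 for Txn1 and -0.19 for Sqstm1. The calls of Gpx3, Glrx3 and Sqstm1 were lost when single libraries were left out, and DESeq2 did not call all 7. Of the 3 m6A-RIP rows of Gclm, 1 rose, 1 fell and 1 was not called. For Sod1, both m6A-RIP rows stand under a transcript whose peaks in the other assays lie in Scaf4.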

How the results depend on the processing

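Which of the 45 genes were called in RNA depended on the test: 34 with edgeR and 20 with DESeq2, which did not call 14 of the smaller or less abundant changes and called no other gene. With single input libraries left out the number was 28 to 29, and in the fits without 1 library the lone library of a group is assumed to vary like the other group; Gpx4, Gsr, Gss, Gstm1, Gsto1, Keap1 and Prdx5 lost their call in 1 or more of these, and Gpx7 gained one without Lin28a+ library a. Of 305 alternative values of genes called in RNA, 43 missed the threshold, and no called gene changed direction in RNA, m6A-RIP or m6A-RIP relative to RNA. The median RNA change was 0.01 with DESeq2-type size factors, 0.04 with total counts and -0.01 to 0.04 with single libraries left out, on both sides of 0. The median in m6A-RIP was -0.23 with total counts, which moved the median of all genes to -0.09, and -0.17 to -0.14 with single libraries left out. Calls relative to RNA numbered 4 to 7 with single libraries left out. Requiring a reciprocal overlap of 50% left 11 of 22 Lin28a-RIP peaks overlapping.

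The replicate numbers of the Igf2bp3-RIP libraries share a correlation of 0.703 in their deviations across 19465 peaks, but with 2 pairs and no label saying what a number marks they were not taken as pairs. With a replicate block, 1 peak (10.2% of all peaks) and 1 gene (8.18% of all genes), both of Gpx3 and lower, were called in Igf2bp3-RIP, and 6 genes relative to RNA (Gclc, Gclm, Glrx2 and Nfe2l1 higher, Gsr and Sod1 lower), where 33.2% of all genes were called. Without Lin28a+ replicate 1, Gpx3 was called in Igf2bp3-RIP and Nfe2l1 relative to RNA, so that these counts ranged from 0 to 1; peak calls stayed at 0. No paired analysis was possible for input and m6A-RIP because the Lin28a+ input columns carry numbers only within names of m6A-RIP libraries, and the Lin28a+ m6A-RIP columns share 1 name.

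Low counts limit Sod3, Gpx7, Txnrd2 and Msra in RNA, and the spread between libraries limits Igf2bp3-RIP. The cause of the differences between tests was not tested.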

Other observations

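Slc7a11, the cystine carrier that supplies glutathione synthesis, was not on the list of 45 genes and was singled out after its values were seen. Its RNA fell from 7.68 and 8.21 CPM in control to 3.54 and 4.5 CPM in Lin28a+ libraries (log2 change -0.99, SE 0.27, adjusted p = 0.00178 by edgeR). In m6A-RIP it rose from 17.7 and 18.4 CPM to 24.7 and 23.5 CPM (0.42, SE 0.1, adjusted p = 0.0029), so that the difference between the assays was 1.39 (SE 0.28, adjusted p = 0.00157). Selenop, the selenium carrier of plasma, differed the same way (1.61, SE 0.33, adjusted p = 0.013), and Pstk, a kinase of selenocysteine synthesis, the opposite way (-0.97, SE 0.26, adjusted p = 0.026). In all, 5 of 51 genes around the redox systems were called relative to RNA, 2 higher and 3 lower, beside 7.16% of all genes.

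Fth1, the ferritin heavy chain, fell alike in RNA (875 and 861 CPM to 559 and 553 CPM, log2 change -0.64) and in m6A-RIP (-0.68).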
